A study of Homo sapiens with 6 samples.

Results

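The 10 genes CCN1, CCN2, ANKRD1, AMOTL2, YAP1, WWTR1, TEAD1, LATS2, AJUBA and AXL were described, being components of the Hippo pathway and genes under the control of its effector YAP. They were picked by symbol from a deposited expression table of 35019 Ensembl genes, each symbol matched 1 gene, and all 10 passed the filter on low counts. The cells were BEAS-2B, an established line of virus-immortalised human bronchial epithelial cells, so every library came from a single line. The RSL3 group (3 libraries) received 2 µM RSL3 for 24 h. RSL3 is a covalent inhibitor of the lipid peroxidase GPX4 and a standard inducer of ferroptosis, a form of cell death driven by lipid peroxidation. The RSL3+ID group (3 libraries) received the same RSL3 and, starting 2 h before it, indirubin, a plant bis-indole known to inhibit several kinases. Indirubin is given in the labels as a range from 7.5 to 30 µM, without the dose used for these libraries. Both groups carried RSL3, and untreated cells and cells with indirubin alone were not analysed here. An effect of indirubin itself therefore cannot be told apart from an altered reaction to RSL3.

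In the Hippo pathway the kinases STK3 and STK4 with the scaffold SAV1 activate the kinases LATS1 and LATS2, which work with MOB1A and MOB1B and phosphorylate YAP (from YAP1) and TAZ (from WWTR1). Phosphorylated YAP and TAZ are held in the cytoplasm or degraded, while the unphosphorylated forms enter the nucleus, bind TEAD factors such as TEAD1 and raise transcription of CCN1, CCN2, ANKRD1, AXL, AMOTL2 and LATS2. LATS2 and AMOTL2 act against YAP and are also its targets, so they form a negative feedback. In epithelia the pathway reads cell density, cell shape and actin tension, and in cultured cells it has been tied to sensitivity to ferroptosis. The signal to YAP passes mainly through phosphorylation and location of proteins, which RNA counts do not measure.

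The promoters of CCN2, ANKRD1 and LATS2 are printed because CCN2 and ANKRD1 are the usual reporters of YAP and TEAD activity, and because ANKRD1 and LATS2 are the 2 genes that passed the test below. RefSeq promoters on GRCh38.p14, 250 bases before to 50 bases after the annotated start, were at hand for 8 of the 10 genes, CCN1 and TEAD1 not being among them. Capitals mark GGAATG, the core of the TEAD binding motif, which was searched on both strands as GGAATG and CATTCC. CCN2 is chr6:131951323-131951622, ANKRD1 is chr10:90921038-90921337 and LATS2 is chr13:21061537-21061836, all on the minus strand and written 5′ to 3′ along the gene.
CCN2: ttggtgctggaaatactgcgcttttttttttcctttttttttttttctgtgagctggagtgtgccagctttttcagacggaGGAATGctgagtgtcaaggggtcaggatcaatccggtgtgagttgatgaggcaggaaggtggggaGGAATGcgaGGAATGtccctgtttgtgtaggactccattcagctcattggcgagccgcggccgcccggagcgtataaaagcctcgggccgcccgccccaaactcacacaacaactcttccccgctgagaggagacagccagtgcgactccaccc
ANKRD1: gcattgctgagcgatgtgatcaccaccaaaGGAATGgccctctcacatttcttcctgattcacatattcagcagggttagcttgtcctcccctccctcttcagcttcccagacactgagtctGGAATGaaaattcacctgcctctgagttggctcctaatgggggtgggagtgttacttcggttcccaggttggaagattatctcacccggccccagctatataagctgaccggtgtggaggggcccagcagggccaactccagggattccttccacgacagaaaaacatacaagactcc
LATS2: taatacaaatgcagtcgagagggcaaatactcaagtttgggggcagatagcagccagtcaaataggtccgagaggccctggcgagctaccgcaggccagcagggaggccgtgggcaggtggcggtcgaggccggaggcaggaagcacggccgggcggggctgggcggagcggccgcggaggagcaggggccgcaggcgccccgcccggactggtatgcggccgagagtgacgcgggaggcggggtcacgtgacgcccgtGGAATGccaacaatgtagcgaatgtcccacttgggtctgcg

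The CCN2 promoter held 3 matches, which began 169, 104 and 95 bases before the start. The ANKRD1 promoter held 2, beginning 220 and 128 bases before the start, and also 1 match to TGANTCA, the motif of AP-1 factors. The LATS2 window held 1 match, 9 bases past the start. Of 35116 RefSeq promoters of the same length, 14.0% held at least 1 TEAD match, 1.37% at least 2 and 0.128% at least 3, and 7.71% held the AP-1 motif. YAP1 also had 1 match in its promoter, as did 1 of the 2 promoters of each of AMOTL2, AJUBA and AXL, whereas both WWTR1 promoters had none. These are matches of letters, and no binding was measured in these cells.

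Sequencing depth was similar across libraries, at 15206183 to 17960356 assigned reads in RSL3 and 16062502 to 18506637 in RSL3+ID. The 10 genes had 908 to 15324 reads each per library. RSL3+ID library 2 stood apart. It held the lowest value of the 6 libraries for 9 of the 10 genes, against 23.8% of the 14188 genes tested. It also held the highest value for 25.4% of all tested genes, but for none of the 10. Both shares of the tested genes were the largest among the 6 libraries, so RSL3+ID library 2 was extreme in both directions. The median deviation of the 10 genes from their 6-library means was -0.69 on the log2 scale in that library, and between -0.02 and 0.26 in the other 5, while the median over all tested genes was 0.01 there. The values of the 10 genes, of every other called gene and of the main lists are therefore given with and without it. RSL3+ID library 2 was singled out by the values of these same genes, so adjusted p-values without it are descriptive only. Keratins of simple and airway epithelium (KRT7, KRT8, KRT18, KRT19) were present in all libraries, KRT8 at 17096 to 24043 normalised counts, but the basal markers KRT5 and TP63 were at or near 0 and CDH1 lay between 1.79 and 39.1. KRT14, EPCAM and NKX2-1 were also low, at RSL3 means of 5.02, 33.1 and 4.98 normalised counts and RSL3+ID means of 14.7, 51.5 and 24.0. Mesenchymal markers were mixed, with VIM at 4662 to 10206 normalised counts. RSL3 and RSL3+ID means were 1288 and 1039 for CDH2, 1222.5 and 876 for COL1A1, and 389 and 300 for PDGFRB. COL1A2 was at 80.4 and 157, and PDGFRA, at 12.8 and 7.18, was below the filter.

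Across the 10 genes, 2 fell in RSL3+ID and none rose. The genes that fell were LATS2 and ANKRD1, to 48.7% and 47.9% of their RSL3 means, and they were also the only ones of the 10 whose 3 RSL3+ID values all lay below the 3 RSL3 values. The test was limma with Benjamini-Hochberg adjustment over 14188 genes, at an adjusted p under 0.05. By the same test 0.832% of all tested genes were lower and 1.08% higher. Groups without overlap were found for 12.6% of all tested genes in the lower direction and for 12.8% in the higher direction, so 2 of 10 without overlap is near that background. At an unadjusted p under 0.05, 3 of the 10 were lower and 0 higher, against 9.71% and 9.63% of all tested genes. Log2 fold changes were negative for 7 of the 10, against 7300 of the 14188 genes tested. Of those 7, AMOTL2 and AXL were positive without RSL3+ID library 2. With total-count scaling, which moves the median of all tested genes to -0.11, 8 of the 10 were negative. The median of the 10 was -0.30, or -0.02 without RSL3+ID library 2. The authors' deposited table, which lists 3.03% of the tested genes as lower and 3.27% as higher, also holds LATS2 and ANKRD1 as lower and none of the 10 as higher. In these bulk libraries fewer cells with a transcript and less transcript per cell cannot be told apart. A normalised count below is a read count divided by the authors' size factor of its library, and a log2 fold change is RSL3+ID over RSL3 on the scale of log2(normalised count + 1).

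**Figure D1:**
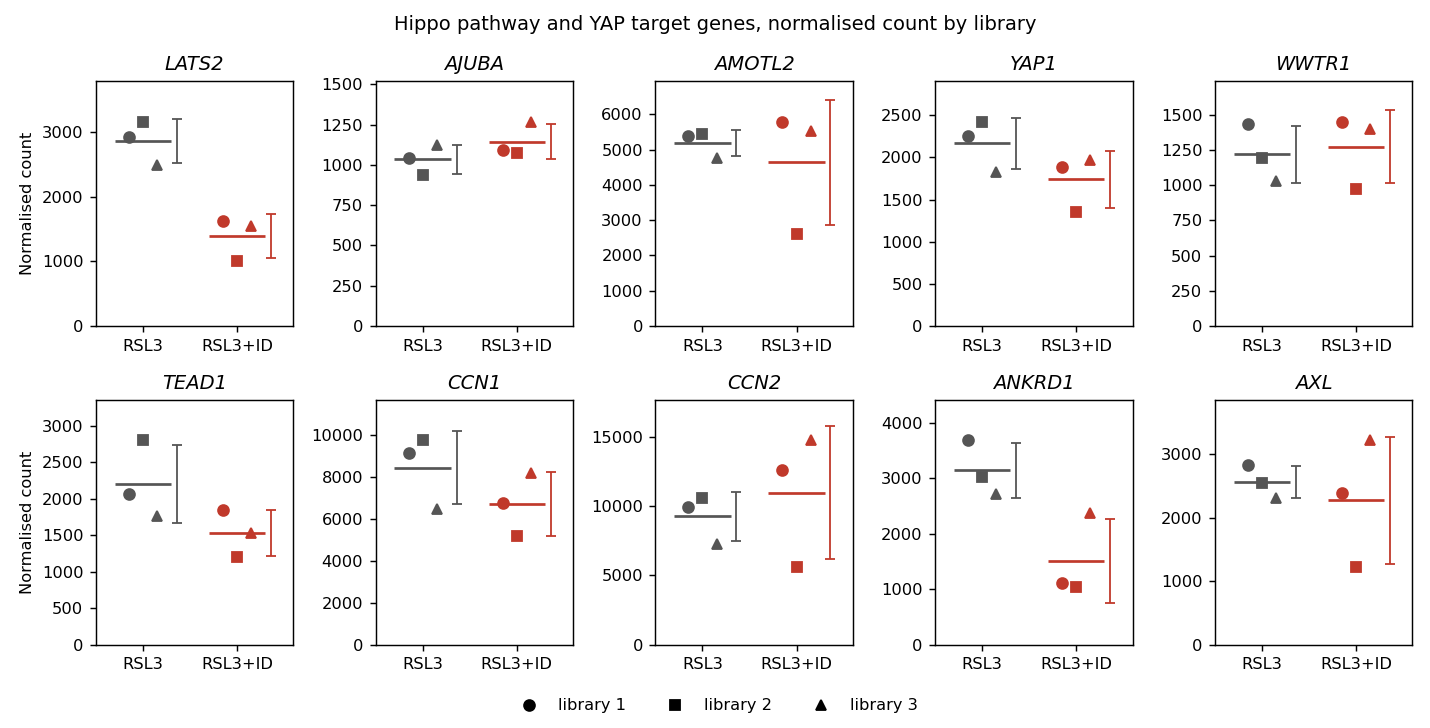
Normalised count (y axis, from 0) of each of the 10 genes in RSL3 (grey) and RSL3+ID (red). Points are single libraries, marked by library number, horizontal lines are means and side bars are ± SD with 3 libraries a group. LATS2 and ANKRD1 are the genes whose groups do not overlap, and the square of RSL3+ID library 2 is the lowest point in every panel but that of AJUBA.

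LATS2 (ENSG00000150457, a protein-coding gene on the minus strand of chromosome 13, 20973032 to 21061547 on GRCh38) encodes the kinase that phosphorylates YAP and TAZ. It was at 2923, 3157 and 2497 normalised counts in RSL3 libraries 1 to 3, and at 1619, 1005 and 1551 in RSL3+ID libraries 1 to 3. All 3 RSL3+ID values were lower than every RSL3 value, and library 2 was the lowest of them. The mean fell from 2859 ± 335 to 1392 ± 337 (SD, n = 3 each), a 2.09-fold drop on the log scale with a log2 fold change of -1.06 (SE 0.19, 95% interval -1.47 to -0.65) and an adjusted p of 0.0291 by limma. Without RSL3+ID library 2 the log2 fold change was -0.84 and the adjusted p 0.000509 by limma. In that fit 1325 genes of the whole table passed, against 271 with all 6 libraries. Leaving out any of the other 5 libraries kept the log2 fold change between -1.19 and -0.99, with adjusted p from 0.0688 to 0.208 by limma. In those 5 fits 0 to 4 genes of the whole table passed. The authors' deposited table gives LATS2 a log2 fold change of -1.04 with a standard error of 0.20.

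Among the 15 kinases, scaffolds and regulators upstream of YAP (LATS2 included), 2 fell and none rose. Of all tested genes 0.832% were lower and 1.08% higher. At an unadjusted p under 0.05 by limma 5 of the 15 were lower and 1 higher, against 9.71% and 9.63% of all tested genes. Their median log2 fold change was -0.19, against -0.02 for all tested genes. It was -0.24 without RSL3+ID library 2 and -0.053 once a trend over length and GC content was taken out. The other gene that fell was WWC1, which encodes KIBRA, a scaffold that activates LATS kinases. It was at 828, 787 and 787 normalised counts in RSL3 and at 533, 376 and 468 in RSL3+ID. The groups did not overlap, and the log2 fold change was -0.82 (SE 0.17, adjusted p 0.0426 by limma), or -0.68 without RSL3+ID library 2 (adjusted p 0.0115), while leaving out any other library raised the adjusted p to between 0.0694 and 0.266. Its relative WWC2 had -0.70 (adjusted p 0.0846), and -0.60 without library 2 (adjusted p 0.0459). MOB1A, the coactivator of the LATS kinases, had 0.42 (adjusted p 0.180), and 0.59 without library 2 (adjusted p 0.00340). LATS1, the paralogue of LATS2, was at 172, 216 and 174 normalised counts in RSL3 and at 253, 170 and 124 in RSL3+ID, with overlapping groups and a log2 fold change of -0.09 (adjusted p 0.891 by limma). STK3, STK4, SAV1 and NF2 had log2 fold changes from -0.22 to -0.07, and none of the 4 passed. The authors' deposited table lists 3 of the 15 (LATS2, WWC1 and WWC2) as lower and 0 as higher, against 3.03% and 3.27% of all tested genes.

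AJUBA and AMOTL2 encode adaptors that bring the cytoskeleton and junctions to the pathway. AJUBA (ENSG00000129474, chromosome 14, 22971174 to 22982642, minus strand), a LIM protein that binds and restrains LATS kinases, was at 1044, 938 and 1121 normalised counts in RSL3 and at 1090, 1075 and 1267 in RSL3+ID. The groups overlapped, library 2 was not low for this gene, and the log2 fold change of 0.15 (95% interval -0.18 to 0.47, adjusted p 0.643) became 0.19 without that library. AMOTL2 (ENSG00000114019, chromosome 3, 134355874 to 134375479, minus strand), a junction protein that binds YAP and keeps it out of the nucleus, was at 5382, 5442 and 4755 in RSL3. It was at 5790, 2608 and 5522 in RSL3+ID. The RSL3+ID values of libraries 1 and 3 were above all RSL3 values and that of library 2 was far below them. The log2 fold change was -0.25 (95% interval -0.78 to 0.29, adjusted p 0.628) and turned to 0.13 without library 2. Of the 7 adaptors listed (with AMOT, AMOTL1, LIMD1, WTIP and PTPN14) none passed the limma test in either direction. Their median was 0.12, or 0.09 without library 2. By limma 1 of the 7 was lower at an unadjusted p under 0.05, against 9.71% of all tested genes. That 1 gene was PTPN14, a phosphatase that holds YAP in the cytoplasm, at -0.55 (adjusted p 0.0811, and 0.0313 without library 2). WTIP, a LIM protein related to AJUBA, had 0.14 (adjusted p 0.683).

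YAP1 (ENSG00000137693, chromosome 11, 102110461 to 102233423, plus strand) was at 2249, 2422 and 1833 normalised counts in RSL3 and at 1890, 1357 and 1975 in RSL3+ID. The groups overlapped through RSL3 library 3, and library 2 was the lowest. The mean was 2168 ± 303 in RSL3 and 1741 ± 335 in RSL3+ID (SD, n = 3 each), with a log2 fold change of -0.33 (95% interval -0.71 to 0.06, adjusted p 0.333 by limma) and of -0.16 without library 2. WWTR1 (ENSG00000018408, chromosome 3, 149517235 to 149736714, minus strand), which encodes TAZ, the paralogue of YAP, was at 1434, 1195 and 1027 in RSL3 and at 1450, 976 and 1396 in RSL3+ID. Its groups overlapped throughout, and the log2 fold change of 0.06 (95% interval -0.35 to 0.46, adjusted p 0.900) was 0.24 without library 2 and -0.04 when libraries were scaled to their total count. TEAD1 (ENSG00000187079, chromosome 11, 12674591 to 12944483, plus strand), the DNA-binding partner of YAP and TAZ, was at 2059, 2798 and 1760 in RSL3 and at 1838, 1204 and 1535 in RSL3+ID. The groups overlapped only in that RSL3+ID library 1 lay above RSL3 library 3. TEAD1 had a log2 fold change of -0.53 (95% interval -0.96 to -0.09) with an unadjusted p under 0.05, but an adjusted p of 0.179, and -0.37 without library 2.

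Of the 9 tested genes among YAP, TAZ, the TEAD factors and the VGLL cofactors, VGLL3 fell and none rose. Of all tested genes 0.832% were lower and 1.08% higher. By limma 3 of the 9 were lower and 0 higher at an unadjusted p under 0.05, against 9.71% and 9.63% of all tested genes. VGLL3 encodes a cofactor that binds TEAD proteins in place of YAP. It was at 591, 764 and 424 normalised counts in RSL3 and at 285, 155 and 324 in RSL3+ID, without overlap. Its log2 fold change was -1.24 (SE 0.29) with an adjusted p of 0.0499, just under the threshold, and -0.92 without library 2 (adjusted p 0.0105). Leaving out any of the other 5 libraries raised its adjusted p to between 0.0814 and 0.266, and the call was also lost with a pseudocount of 0.5 (0.0512), with voom (0.0513), with a filter at 50 (0.0521) and with upper-quartile scaling (0.0602). TEAD3 had -0.65 (adjusted p 0.116, and 0.0495 without library 2) and TEAD2 had -0.26 (adjusted p 0.664). VGLL1 was below the filter on low counts. The median of the 9 was -0.26, or -0.16 without library 2. Of this list the authors' deposited table holds 1 gene, VGLL3, as lower and 0 as higher, against 3.03% and 3.27% of all tested genes.

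**Figure D2:**
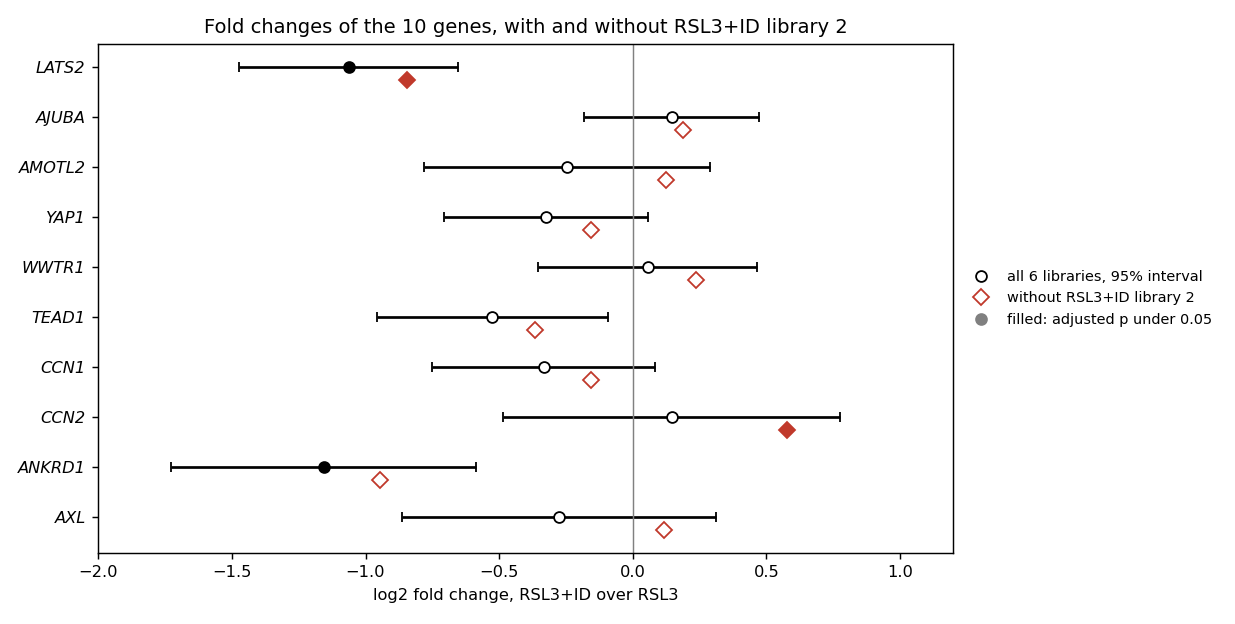
Log2 fold change (x axis, RSL3+ID over RSL3) of the 10 genes with all 6 libraries (circles, with 95% intervals) and without RSL3+ID library 2 (red diamonds); filled symbols have an adjusted p under 0.05. LATS2 is filled in both fits, ANKRD1 with all 6 libraries, at -1.16, and CCN2 without library 2, at 0.58.

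CCN1 and CCN2 encode secreted matricellular proteins, known in older usage as CYR61 and CTGF, and are the usual readouts of YAP activity. CCN1 (ENSG00000142871, chromosome 1, 85580761 to 85583962, plus strand) was at 9142, 9755 and 6465 normalised counts in RSL3 and at 6780, 5178 and 8217 in RSL3+ID. The groups overlapped, and the log2 fold change was -0.33 (95% interval -0.75 to 0.08, adjusted p 0.368), or -0.16 without library 2. With a trend over transcript length and GC content removed it was -0.49 (adjusted p 0.231 by limma). CCN2 (ENSG00000118523, chromosome 6, 131948176 to 131951373, minus strand) was at 9948, 10593 and 7255 in RSL3 and at 12623, 5566 and 14753 in RSL3+ID. Libraries 1 and 3 of RSL3+ID held the highest CCN2 values of all 6 libraries and library 2 the lowest. With all 6 libraries the mean was 9265 ± 1770 in RSL3 and 10981 ± 4809 in RSL3+ID (SD, n = 3 each), with a log2 fold change of 0.15 (95% interval -0.48 to 0.78) and an adjusted p of 0.826 by limma. Without library 2 it was 0.58 with an adjusted p of 0.0183, and with a trend over transcript length and GC content removed it was -0.01. In that fit without library 2, 742 genes or 5.23% of those tested were higher and 583 or 4.11% lower. Of the 10 genes, CCN2 was then called higher and LATS2 lower.

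The ratio of CCN2 to CCN1, chosen after its values were seen and given without a test, was 1.09, 1.09 and 1.12 in RSL3. In RSL3+ID it was 1.86, 1.07 and 1.80, so that libraries 1 and 3 were above RSL3 and library 2 was level with it. Of the 5 tested CCN genes none passed with all 6 libraries in either direction by limma. At an unadjusted p under 0.05, 1 was higher, against 9.63% of all tested genes. That was CCN5, at 11.6, 6.20 and 12.4 normalised counts in RSL3 and 26.4, 20.8 and 23.1 in RSL3+ID, which is 1.19 higher on the log2 scale (SE 0.54) with an adjusted p of 0.254. CCN3 had 0.42 (adjusted p 0.484), and CCN4 was below the filter.

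ANKRD1 (ENSG00000148677, chromosome 10, 90912096 to 90921276, minus strand) encodes a muscle ankyrin repeat protein that is among the strongest YAP targets in many cell types. It was at 3685, 3023 and 2720 normalised counts in RSL3 and at 1104, 1045 and 2372 in RSL3+ID. The groups did not overlap, but RSL3+ID library 3 lay close to the lowest RSL3 value, while libraries 1 and 2 were both far lower. The mean fell from 3143 ± 494 to 1507 ± 750 (SD, n = 3 each), which is 2.23-fold on the log scale, with a log2 fold change of -1.16 (SE 0.26, 95% interval -1.73 to -0.59). Its adjusted p of 0.0490 by limma was just under the threshold. It was 0.138 without library 2 (log2 fold change -0.95) and between 0.0914 and 0.267 without any 1 of RSL3 libraries 1, 2 and 3 and RSL3+ID library 1. Without RSL3+ID library 3 it was 0.0159 with a log2 fold change of -1.54. The call was also lost with upper-quartile scaling (adjusted p 0.0584), with no filter (0.0620) and with a filter at 50 normalised counts (0.0509). The authors' deposited table gives -1.06 with a standard error of 0.26 and an adjusted p of 0.00318. ANKRD2, the other tested muscle ankyrin repeat gene, had a log2 fold change of -0.02 (adjusted p 0.993), and ANKRD23 was below the filter. The ratio of ANKRD1 to CCN2, chosen after its values were seen, was 0.370, 0.285 and 0.375 in RSL3 and 0.0874, 0.188 and 0.161 in RSL3+ID.

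AXL (ENSG00000167601, chromosome 19, 41219203 to 41261766, plus strand) encodes a receptor tyrosine kinase of the TAM family whose ligand is GAS6. It was at 2828, 2550 and 2315 normalised counts in RSL3 and at 2388, 1223 and 3219 in RSL3+ID. RSL3+ID held both the highest and the lowest AXL value, in libraries 3 and 2. The log2 fold change was -0.28 (95% interval -0.87 to 0.31, adjusted p 0.621) and turned to 0.12 without library 2. Among AXL, TYRO3, MERTK, GAS6 and PROS1 none passed by limma, against 0.832% lower and 1.08% higher of all tested genes. At an unadjusted p under 0.05, 0 of the 5 were lower and 0 higher, against 9.71% and 9.63% of all tested genes. TYRO3 had 0.21 (adjusted p 0.480) and GAS6 had -0.34 (adjusted p 0.321).

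**Figure D3:**
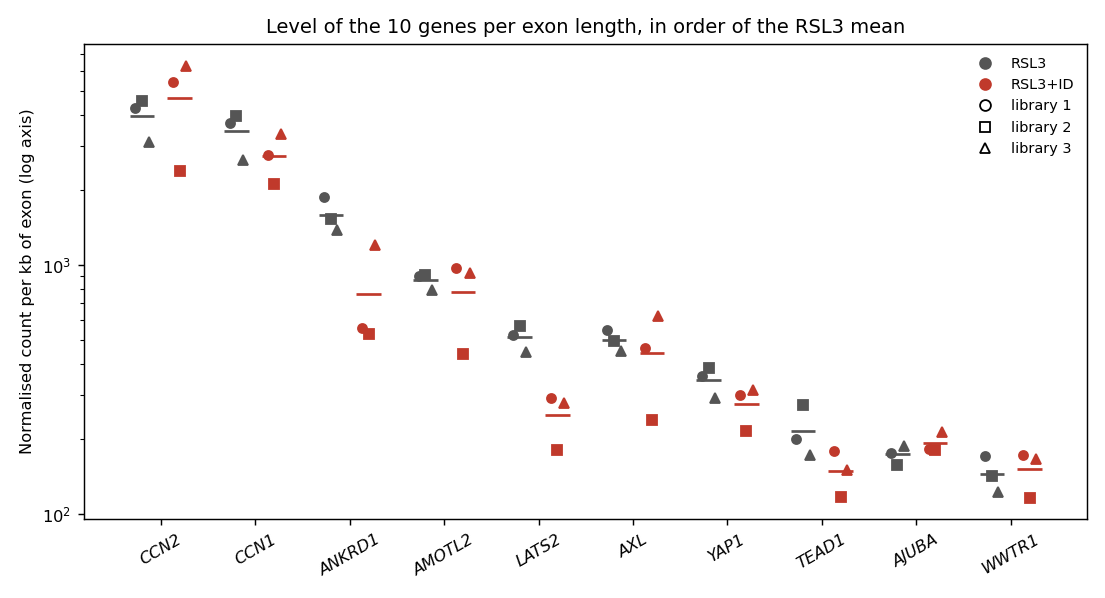
Normalised count per kb of exon (log y axis) of the 10 genes, ordered by their RSL3 mean, in RSL3 (grey) and RSL3+ID (red); points are libraries and lines are means of 3. CCN2 and CCN1 lead at 3961 and 3444 in RSL3, and WWTR1 is the lowest at 145.

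Per kb of exon, the secreted targets CCN2 (3961 ± 757, SD, n = 3) and CCN1 (3444 ± 713) had the highest levels in RSL3, and their ranges overlapped. ANKRD1 followed at 1588 ± 249 and AMOTL2 at 868 ± 63.6, each apart from its neighbours in that order. LATS2 (512 ± 60.0) and AXL (498 ± 49.8) overlapped each other. YAP1 was at 344 ± 48.1. TEAD1 (215 ± 52.0), AJUBA (173 ± 15.4) and WWTR1 (145 ± 24.3) came last, and neighbours among these 3 overlapped. In RSL3+ID the LATS2 level was 249 per kb and the ANKRD1 level 761. The YAP1 to WWTR1 ratio of normalised counts was 1.57, 2.03 and 1.78 in RSL3 and 1.30, 1.39 and 1.41 in RSL3+ID, a comparison also chosen after its values were seen and not tested. The LATS2 to LATS1 ratio was 17.0, 14.6 and 14.3 in RSL3 and 6.39, 5.90 and 12.5 in RSL3+ID.

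Of the 22 genes of a published signature of YAP and TAZ target genes, which holds 6 of the 10 genes above, 3 fell and none rose. Of all tested genes 0.832% were lower and 1.08% higher. By limma 9 of the 22 were lower and 0 higher at an unadjusted p under 0.05, against 9.71% and 9.63% of all tested genes. Log2 fold changes were negative for 18 and positive for 4. Of the 14188 tested genes, 7300 were negative and 6888 positive. With total-count scaling, which moves the median of all tested genes to -0.11, 20 of the 22 were negative. The median of the 22 was -0.39, or -0.12 without RSL3+ID library 2, against -0.02 for all tested genes in both fits. For 9 of the 22 all RSL3+ID values were below all RSL3 values, against 12.6% of all tested genes. RSL3+ID library 2 held the lowest value for 17 of the 22. Besides LATS2 and ANKRD1 the gene that fell was F3, which encodes tissue factor, the initiator of coagulation. F3 was at 1389, 1423 and 1039 normalised counts in RSL3 and at 514, 346 and 891 in RSL3+ID, without overlap. Its log2 fold change was -1.23 (SE 0.28, adjusted p 0.0489), and -0.91 without library 2 (adjusted p 0.0144). Leaving out any of the other 5 libraries put its adjusted p between 0.0786 and 0.266, and its call was also lost with upper-quartile scaling (0.0584) and with a filter at 50 (0.0505). Under each of those, 1 of the 22 was called, LATS2. TGFB2, a growth factor of the TGF-β family, had -0.73 (adjusted p 0.0811, and 0.0469 without library 2). Without library 2, 5 of the 22 were called lower and 1 higher. The authors' deposited table lists 5 of the 22 as lower, namely ANKRD1, F3, LATS2, PTPN14 and TGFB2.

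**Figure D4:**
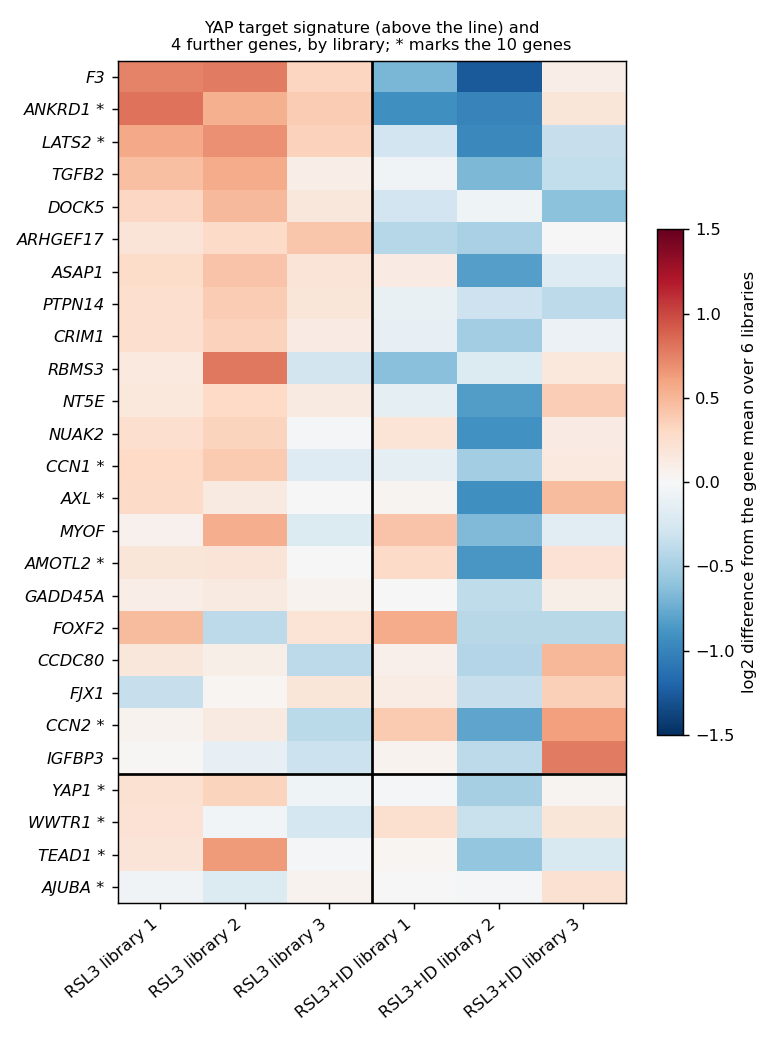
Log2 difference of each library from the gene's 6-library mean (colour) for the 22 signature genes above the line, ordered by fold change, and YAP1, WWTR1, TEAD1 and AJUBA below it; asterisks mark the 10 genes. The column of RSL3+ID library 2 is the lowest for 17 of the 22, while F3 and ANKRD1 at the top are low in libraries 1 and 2 of RSL3+ID and LATS2 in all 3.

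SRF with its cofactors MRTFA and MRTFB drives cytoskeletal genes, responds to actin tension as YAP does and shares several target genes with it. Of the 16 tested genes of this list FHL2 fell and none rose, against 0.832% lower and 1.08% higher of all tested genes. All 16 had negative log2 fold changes, as did 7300 of the 14188 genes tested. The median was -0.24, or -0.09 without library 2. All 16 were also negative with total-count scaling, which moves the median of all tested genes to -0.11, but 13 with upper-quartile scaling. Without library 2 MRTFA, TAGLN, CNN1 and FLNA turned positive, at 0.03, 0.05, 0.08 and 0.27. By limma 6 were lower and 0 higher at an unadjusted p under 0.05, against 9.71% and 9.63% of all tested genes. FHL2, a LIM cofactor, was at 5094, 4343 and 4283 normalised counts in RSL3 and at 2825, 1648 and 3040 in RSL3+ID, without overlap. Its log2 fold change was -0.91 (SE 0.21, adjusted p 0.0488), and -0.64 without library 2 (adjusted p 0.00311), while leaving out any other library put the adjusted p between 0.0801 and 0.267. With upper-quartile scaling it was 0.0598 and no gene of the list was called. TPM1, a tropomyosin, had -0.71 (adjusted p 0.0732, and 0.0262 without library 2) and ACTN1, an actin crosslinker, -0.45 (adjusted p 0.133). RSL3+ID library 2 held the lowest value for 13 of the 16. ACTA2 was below the filter.

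**Figure D5:**
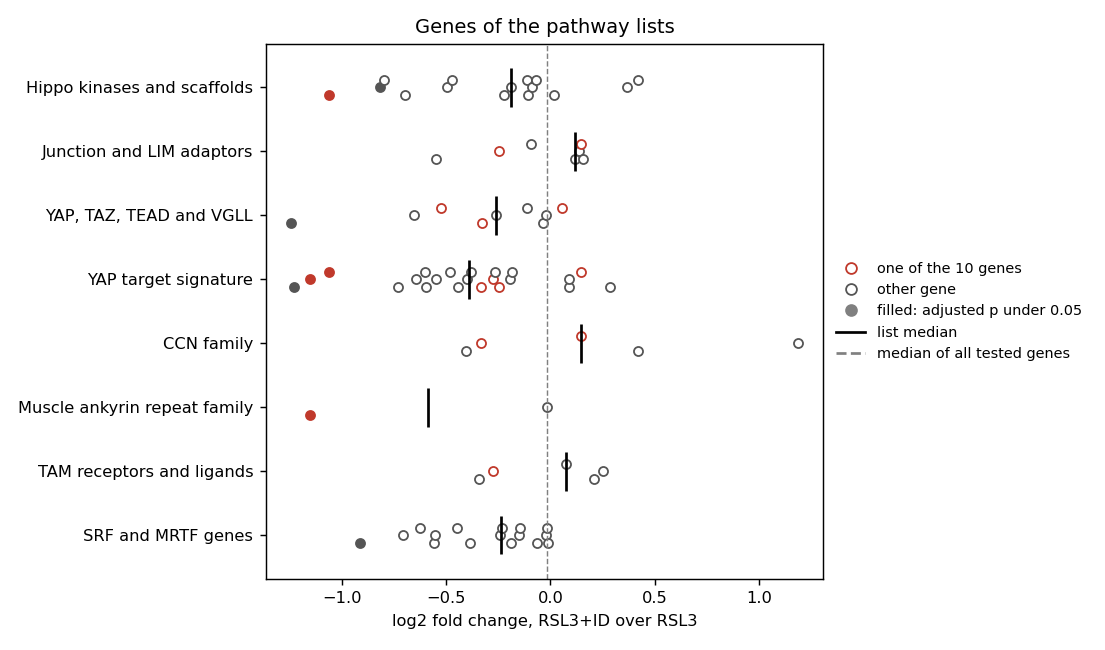
Log2 fold change (x axis, RSL3+ID over RSL3) of every tested gene in 8 pathway lists, some genes standing in more than 1 list. Red circles are among the 10 genes, filled circles have an adjusted p under 0.05, black lines are list medians and the dashed line is the median of all tested genes. The 6 filled genes lie between -1.24 and -0.82.

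Over the 8 lists given here, 74 of 78 genes were tested. Of these 6 fell and none rose, against 0.832% lower and 1.08% higher of all tested genes. The adjusted p of the 6 ran from 0.0291 to 0.0499 by limma. For 20 of the 74 the groups did not overlap in the lower direction and for 2 in the higher direction, against 12.6% and 12.8% of all tested genes. Summed levels of cell type markers overlapped between the groups. The simple-epithelial keratin KRT18 fell (log2 fold change -0.66, adjusted p 0.0361 by limma, and -0.60 with 0.00270 without library 2), the only called gene of the 6 tested epithelial markers, and the summed level of the 10 epithelial markers was 42787 to 47469 normalised counts in RSL3 and 33154 to 43297 in RSL3+ID. The summed level of 6 mesenchymal markers was 10850 to 12207 in RSL3 and 6488 to 12744 in RSL3+ID. By limma none of the 5 tested was called and 1 was lower at an unadjusted p under 0.05, against 9.71% of all tested genes. Endothelial markers summed to 49.6 to 77.5 and 19.8 to 64.4, and leukocyte markers, PTPRC, CD68 and LYZ, to at most 14.3. The part of cell makeup in the results was not tested. Log2 fold changes also went with exon length. Their median was 0.17 in the shortest of 5 equal groups of tested genes, which holds CCN1, CCN2 and ANKRD1, and -0.17 in the longest, which holds WWTR1 and TEAD1. With that trend removed LATS2 had -1.06 (adjusted p 0.0245) and ANKRD1 -1.29 (adjusted p 0.0285). Exons of CCN2, AMOTL2, YAP1, WWTR1, AJUBA and AXL share bases with another annotated gene, and the use of strand in counting is not given in the sources used here. The 1 such partner with counts in the table, WWTR1-AS1, was at means of 24.2 and 11.4 normalised counts.

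The genes outside the lists whose levels followed CCN1 most closely over the 6 libraries were BRIX1, IFNGR1 and SPOPL, with Pearson r of 0.995, 0.994 and 0.989 on the log2 scale. For YAP1 they included CHORDC1 and MACO1, with r of 0.995 and 0.992. They are a description only, since the 6 points share library effects. CHORDC1 was at 12832, 14236 and 9885 normalised counts in RSL3 and at 10122, 7112 and 10485 in RSL3+ID. BRIX1 was at 856, 897 and 698 in RSL3 and at 741, 617 and 828 in RSL3+ID. In both, as in CCN1 and YAP1, RSL3 library 2 was the highest and RSL3+ID library 2 the lowest.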

How the data were processed

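RNA of 6 BEAS-2B libraries was extracted with TRIzol and sequenced after preparation with NEBNext Ultra reagents, per the labels. Tools listed in the submitters' processing notes, without roles, are DESeq2 1.30.0, StringTie 2.1.5, HISAT2 2.2.1 and Trimmomatic 0.39, with build GRCh38. The authors deposited log2 expression values with 1 shared floor (6.044391), the form of the variance-stabilising transform of DESeq2. Solving that transform gave read counts over size factors, and 100% of the values came out as whole reads within 0.001. Per the file headers, the authors' deposited table of changed genes holds mean signal (base mean), log2 fold changes, a test score (Wald statistic) and p-values. The recovered means matched its base means for 894 genes to within 2.5e-14.

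Groups came from the treatment field. Columns were assigned to groups by name: 3 are named RSL3 and 3 add a garbled word that reads as "drug given" once its encoding is repaired, so their identity with RSL3+ID rests on that word. They were numbered as named. Every sample title starts with RSL3+M, an M that no source used here explains. Whether the libraries of a group are separate cultures is not said, and the p-values then cover only the spread among libraries, possibly technical.

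Genes with a mean of at least 10 normalised counts (14188) were fitted with limma 3.58.1 in R 4.3.3 (trended, robust) on log2(normalised count + 1), unadjusted p-values being Benjamini-Hochberg adjusted over all of them. The fit was tested on simulated data. Alternatives were 3 scalings or transforms, pseudocounts 0.5 and 5, no filter and a filter at 50, voom, untrended variance, a length and GC correction, a replicate block and each library left out. Exon lengths and coordinates are from GENCODE on GRCh38. Named are the 10 genes, each list's other called genes and its 2 others of smallest p, and 3 genes of like pattern for CCN1 and for YAP1; LATS1, STK3, STK4, SAV1, NF2 and the marker genes were added after their values were seen. Of the genes and lists this rule covers, 1 gene of like pattern and 1 list are not reported here; in that list 0 of 8 genes were called by limma (2 higher and 1 lower at an unadjusted p under 0.05) 5 of 8 had positive fold changes and 2 were called higher without RSL3+ID library 2. The 10 genes and all lists were chosen with earlier results of these data known.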

Additional observations from a re-analysis of the deposited data

How the results depend on the processing

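In total 271 genes were called, 2 of them among the 10. With untrended, non-robust variances 0 genes and 0 of the 10 were called by limma, though 2402 genes and 2 of the 10 had an unadjusted p under 0.05. With the replicate block 0 genes and 0 of the 10 were called (1993 and 3 unadjusted). Same-numbered libraries did not deviate together (correlations -0.00, -0.25 and -0.18), and unlike-numbered ones had correlations from -0.19 to 0.31. Deviations of 3 libraries from their group mean sum to 0, so these values cannot decide whether libraries were paired. Leaving out 1 library gave 0 to 1325 genes, with 1325 without RSL3+ID library 2 and at most 4 without any other, and 0 to 2 of the 10. Of the 10, 1 was called with upper-quartile scaling, with no filter and with a filter at 50. Every fit without 1 library had fewer residual degrees of freedom, the one with 1325 genes included. The cause of these changes was not tested. Total-count scaling shifted the median of all genes to -0.11 and the share of higher calls from 56.5% to 29.3%, and upper-quartile scaling gave 68.0%. Directions turned as follows. CCN2 went to -0.011 once a length and GC trend was taken out and ran from -0.13 to 0.58 with 1 library left out. WWTR1 went to -0.036 with total-count scaling and ran from -0.061 to 0.24. AMOTL2 ran from -0.45 to 0.13, AXL from -0.58 to 0.12 and ANKRD2 from -0.60 to 0.64 with 1 library left out. ANKRD2 was also 0.0063 with upper-quartile scaling, 0.026 with a pseudocount of 5 and 0.033 on the deposited log2 values. Of 170 values for the 10 genes under the 17 alternatives, 142 kept direction and side of the threshold, most of them for genes never called. In 17 a call was lost, all of them for LATS2 and ANKRD1, the only genes with a call to lose. Another 10 turned direction and 1 gained a call. With 3 libraries a group the intervals stay wide, that of CCN2 from -0.48 to 0.78, so a gene that was not called is not shown to be unchanged.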
